A study of Mus musculus with 12 samples.

Results

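The transcription factors that set and keep lymphatic identity were followed in lymphatic endothelial cells (LECs) of the mouse lung: Prox1, Sox18, Nr2f2, Foxc1, Foxc2, Gata2, Hhex, Nfatc1 and Foxp2. These 9 genes were chosen by name, as the count file entries whose Ensembl identifiers carry these symbols in the GENCODE M21 annotation. They are 9 of 52636 identifiers in the count files. All 9 were among the 21440 genes that passed the filter on low counts.

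The LECs came from lungs of Prox1-EGFP reporter mice, whose lymphatic cells make GFP from regulatory sequence of Prox1, and were sorted as positive for GFP and the endothelial protein CD31 and negative for EpCAM and blood lineage markers. The study names the exposed animals as C57Bl/6 or Prox1-EGFP. Exposure to cigarette smoke (CS) in a whole-body chamber started at 6 weeks of age and was compared with room air (RA). It lasted 8 weeks in the acute groups, of 2 CS and 2 RA libraries, and at least 24 weeks in the chronic groups, of 5 CS and 3 RA libraries, which the labels call aged. The labels of the acute groups give their 8 weeks as an age. The methods give it as the length of exposure, which is followed here. Libraries are named by sex and number: F and M in both acute groups, F, M1 and M2 in chronic RA, and F and M1 to M4 in chronic CS. Each acute library pooled 2 to 5 mice and the chronic ones were not pooled, so pooling, age and exposure length cannot be told apart. The gate selects cells by a Prox1 reporter in every group.

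Lymphatic fate begins in embryonic veins, where Sox18 and Nr2f2 switch on the homeodomain factor Prox1, which then keeps the lymphatic program on in the adult. Foxc2, Gata2 and Nfatc1 act later, in the collecting vessels and above all in their valves. Prox1 keeps up expression of Flt4, the receptor for the lymphatic growth factor VEGF-C, which in turn sustains Prox1.

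Values are given as CPM, the deposited gene counts scaled by library total and by edgeR's TMM factors. The smallest library, chronic CS F, held 18821438 counts and the largest, acute RA F, held 56998590, and 3 counts corresponded to 0.0526 to 0.159 CPM. The members were far above that floor, since the lowest count of any member in any library was 627 for Foxc1. Summed markers of leukocytes, macrophages, lymphoid cells, blood endothelium and mesenchyme were higher in both acute CS libraries than in both acute RA libraries, and their values stand beside the results they touch. In these bulk samples fewer cells of a type and less RNA per cell cannot be told apart.

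Prox1 (ENSMUSG00000010175) lies on the minus strand of chromosome 1 of GRCm38, at chr1:190118035-190170714. The sequence just before its outermost RefSeq start is shown because regulatory sequence of this gene drives the reporter of the sort. Gata2 (ENSMUSG00000015053), at chr6:88193891-88207032 on the plus strand, is shown because it was the other member called as changed by acute CS. Both windows hold the 250 bases before the start in RefSeq on GRCm38.p6 and lie outside annotated exons. They are written 5′ to 3′ on the gene's strand, with CG dinucleotides in capitals.
Prox1, chr1:190170828-190171077, minus strand: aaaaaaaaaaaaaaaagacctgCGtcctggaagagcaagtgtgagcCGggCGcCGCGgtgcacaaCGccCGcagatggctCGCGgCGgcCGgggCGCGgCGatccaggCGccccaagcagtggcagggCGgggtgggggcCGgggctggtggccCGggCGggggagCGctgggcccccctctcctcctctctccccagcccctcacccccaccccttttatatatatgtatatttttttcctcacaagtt
Gata2, chr6:88193641-88193890, plus strand: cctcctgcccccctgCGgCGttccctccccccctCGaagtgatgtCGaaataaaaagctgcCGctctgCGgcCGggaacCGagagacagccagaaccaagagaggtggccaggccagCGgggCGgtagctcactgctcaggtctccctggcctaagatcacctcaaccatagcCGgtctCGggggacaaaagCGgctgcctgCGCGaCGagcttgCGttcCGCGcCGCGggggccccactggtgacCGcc
The Prox1 window is 64.8% G and C with 20 CG dinucleotides, and the Gata2 window 67.2% with 22, where the medians over 32851 mouse promoter windows of this length were 52.4% and 6. Windows were searched on both strands for the SOX factor word AACAAT, the ETS factor word CCGGAAG, the GATA factor word AGATAA, the forkhead word GTAAACA and the nuclear receptor half-site AGGTCA. None of these words overlaps another here, as neither window held any of them. In all promoter windows their shares were 9.42%, 6.91%, 9.99%, 3.17% and 14.0%. The windows of Nr2f2, Foxc1 and Hhex, and the inner windows of Prox1 and Gata2, held none of the 5 words either. No match says only that these letters are not in these windows.

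Sox18 (ENSMUSG00000046470) is at chr2:181669836-181671640 on the minus strand and Nr2f2 (ENSMUSG00000030551) at chr7:70351944-70366735 on the minus strand. Foxc1 (ENSMUSG00000050295) is at chr13:31806633-31812476 and Foxc2 (ENSMUSG00000046714) at chr8:121116171-121118895, both on the plus strand. Hhex (ENSMUSG00000024986) is at chr19:37434810-37440731 on the plus strand and Nfatc1 (ENSMUSG00000033016) at chr18:80606205-80713071 on the minus strand. Foxp2 (ENSMUSG00000029563) is at chr6:14901349-15441977 on the plus strand, on the same chromosome as Gata2. Their exon unions run from 1620 bases for Sox18 to 16346 bases for Foxp2, so equal CPM do not mean equal levels per length.

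Levels between genes were compared per length, as FPKM over the union of a gene's exons, in the 5 RA libraries. Sox18, the SRY-box factor that induces Prox1, had 326 ± 50.9 FPKM (SD, n = 5) and Prox1 had 253 ± 29.8 FPKM (SD, n = 5). At these levels 99.4% and 99.3% of the tested genes lay below them. The order of this pair differed between the RA groups. In chronic RA Sox18, at 320 to 378 FPKM, was above Prox1, at 219 to 252 FPKM, in all 3 libraries. In acute RA Sox18 was at 263 and 292 FPKM, just below Prox1 at 267 and 295 FPKM, in both libraries. Nfatc1, a factor switched on by calcineurin, followed with 39.6 ± 4.97 FPKM and was apart from both neighbours. Nr2f2, which encodes the nuclear receptor COUP-TFII, had 26.6 ± 3.27 FPKM. Hhex, a homeobox gene of early endothelium and liver, had 23.1 ± 1.84 FPKM. Gata2, a zinc finger factor of lymphatic valves and of blood stem cells, had 20.3 ± 1.97 FPKM. Foxc2, the forkhead factor of lymphatic valves, had 15.8 ± 1.58 FPKM. From Nr2f2 down to Foxc2 each gene's range over libraries overlapped that of the next, although within a library Nr2f2 was above Hhex in 4 of 5, Hhex above Gata2 in 5 of 5 and Gata2 above Foxc2 in 5 of 5. Its paralogue Foxc1, at 5.85 ± 0.979 FPKM, and Foxp2, a forkhead factor of collecting vessels, at 2.72 ± 0.405 FPKM, stood apart at the bottom. Per read rather than per length, Prox1 led with a mean of 2123 CPM in RA.

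**Figure D1:**
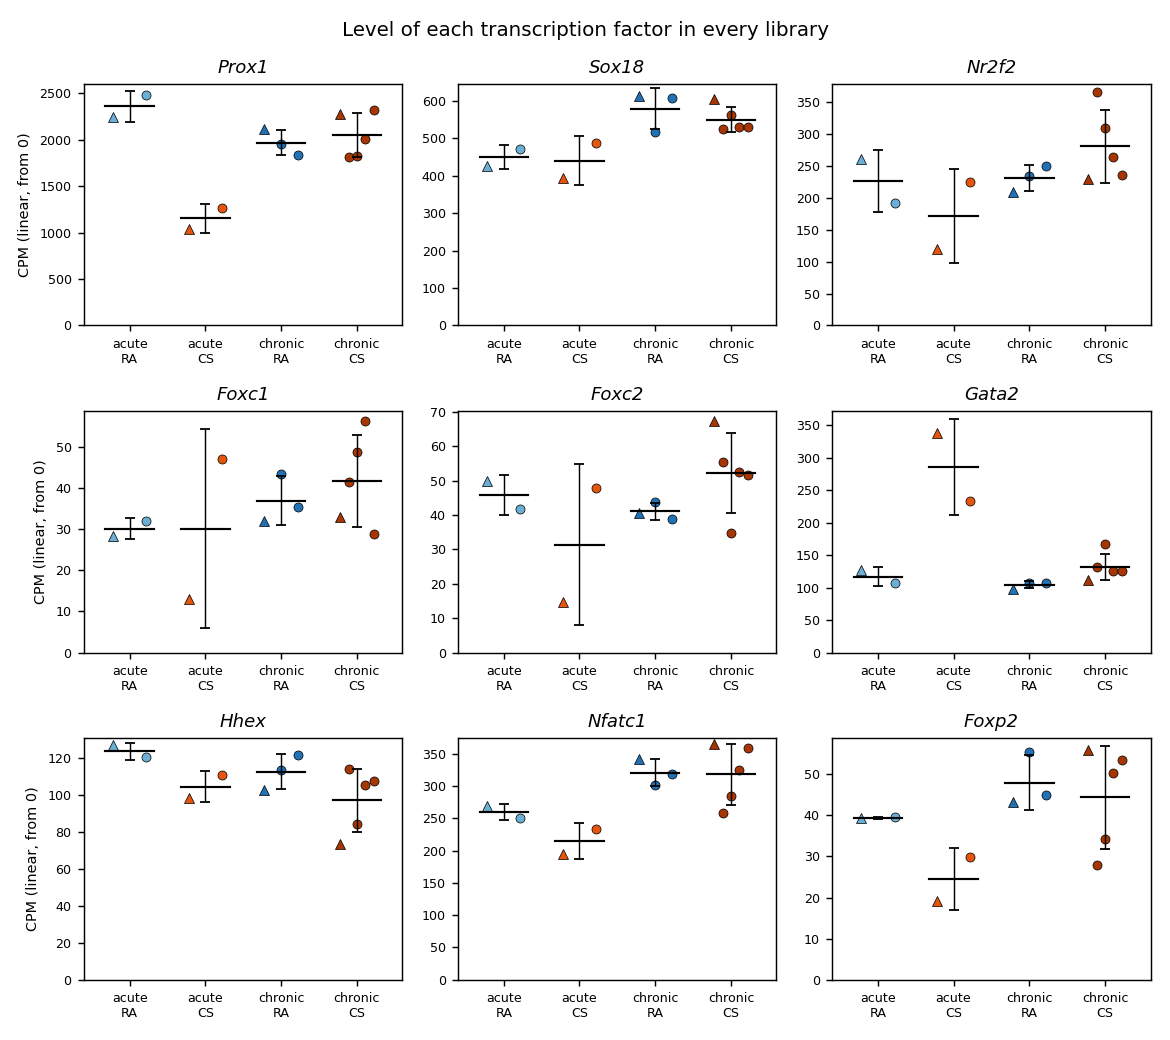
Each panel plots 1 gene's CPM on a linear axis from 0 in every library, by group. Triangles are female and circles male libraries, and the line and bar give the group mean and SD (n = 2, 2, 3 and 5). For Prox1 both acute CS libraries, at 1042 and 1262 CPM, lie below the 10 others, and for Gata2 both, at 337 and 234 CPM, lie above them.

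The acute comparison asked which of these factors differed after 8 weeks of CS. Prox1 fell and Gata2 rose, and none of the other 7 passed the test. That is 2 of 9 members called by edgeR at an adjusted p under 0.05, 1 in each direction, beside 3.47% of all tested genes called, 2.75% higher and 0.723% lower. DESeq2 called the same 2 genes, beside 10% of the genes for which it gave an adjusted p. Of the 9 differences 8 were negative, with a median log2 fold change of -0.28 beside 0.041 over all genes. Much of this lean came from acute CS F. Without it Sox18 (0.12), Foxc1 (0.65) and Foxc2 (0.066) were positive and Nr2f2 was at -0.015. Prox1, Hhex, Nfatc1 and Foxp2 stayed negative.

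Prox1 was measured at 2239 CPM in acute RA F and 2476 CPM in acute RA M. The CS libraries held 1042 CPM (F) and 1262 CPM (M). Both acute CS libraries were thus below both controls, and below each of the 8 chronic libraries, which ran from 1814 to 2322 CPM. The log2 fold change was -1.03 (standard error 0.16, 95% interval -1.38 to -0.69, edgeR adjusted p = 0.00797), a level 0.489 times that in RA. The call was lost without acute CS F (-0.90, adjusted p = 0.0601), without acute RA F (-1.10, adjusted p = 0.0504), without acute RA M (-0.99, adjusted p = 0.0919) and when only the acute groups were fitted (-1.05, adjusted p = 0.0912). Leaving out an acute library leaves 1 in its group, with the spread taken from the other groups.

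Gata2 was measured at 127 CPM in acute RA F and 107 CPM in acute RA M. The CS libraries held 337 CPM (F) and 234 CPM (M). These were the highest Gata2 levels of the 12 libraries, the next being 166 CPM in chronic CS M2. The log2 fold change was 1.29 (standard error 0.21, 95% interval 0.83 to 1.75, edgeR adjusted p = 0.00897), a level 2.44 times that in RA. It was no longer called without acute CS F (0.998, adjusted p = 0.0671), without acute RA F (1.41, adjusted p = 0.0658), without acute RA M (1.14, adjusted p = 0.119) or with only the acute groups (1.27, adjusted p = 0.101). An exact permutation test of 2 libraries against 2 cannot go below p = 0.333 and so cannot pass 0.05 for any single acute value.

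Sox18 was measured at 427 and 472 CPM in acute RA F and M, and at 394 and 487 CPM in acute CS F and M. The CS libraries lay on either side of the controls, with a log2 fold change of -0.030 (95% interval -0.34 to 0.28, edgeR adjusted p = 0.972). The interval does not reach the fall seen in Prox1. Nr2f2 was at 261 and 193 CPM in acute RA F and M, and at 119 and 224 CPM in acute CS F and M. Its groups overlapped, and its log2 fold change of -0.40 had an interval from -1.05 to 0.24 (edgeR adjusted p = 0.605). That value rested on the library kept, being -0.015 without acute CS F and -0.93 without acute CS M.

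The 2 Foxc genes differed between the acute CS libraries themselves. Foxc1 was at 28.4 and 31.9 CPM in the controls, and under CS it was at 13.0 CPM in F and 47.2 CPM in M. Foxc2 was at 49.9 and 41.7 CPM in the controls, with 14.8 CPM in the female and 47.9 CPM in the male CS library. In both genes acute CS F was the lowest of all 12 libraries while acute CS M was within or above the range of the controls. Their log2 fold changes, -0.0026 and -0.55, had 95% intervals from -1.05 to 1.05 and from -1.49 to 0.39. Foxc2 was called without acute CS M (-1.63, edgeR adjusted p = 0.0276) and had the opposite sign without acute CS F (0.066). Each of these fits leaves 1 acute CS library, which is assumed to vary like the other groups. With 1 library of each sex, library and sex cannot be told apart.

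Hhex, Nfatc1 and Foxp2 were lower in both acute CS libraries than in both controls without passing the test. Hhex was at 98.6 and 111 CPM in CS and 127 and 120.4 CPM in RA, a log2 fold change of -0.24 (95% interval -0.68 to 0.19). Nfatc1 was at 194 and 234 CPM in CS and 268 and 250.2 CPM in RA, a log2 fold change of -0.28 (95% interval -0.66 to 0.11). Foxp2 was at 19.2 and 29.7 CPM in CS and 39.2 and 39.5 CPM in RA, a log2 fold change of -0.69 (95% interval -1.41 to 0.032). Their edgeR adjusted p-values were 0.668, 0.520 and 0.349. Together with Prox1 and Gata2 this made 5 of 9 members whose acute groups did not overlap, beside 50.1% of all tested genes. At an unadjusted p under 0.05 there were 2 of 9, beside 15.7%.

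**Figure D2:**
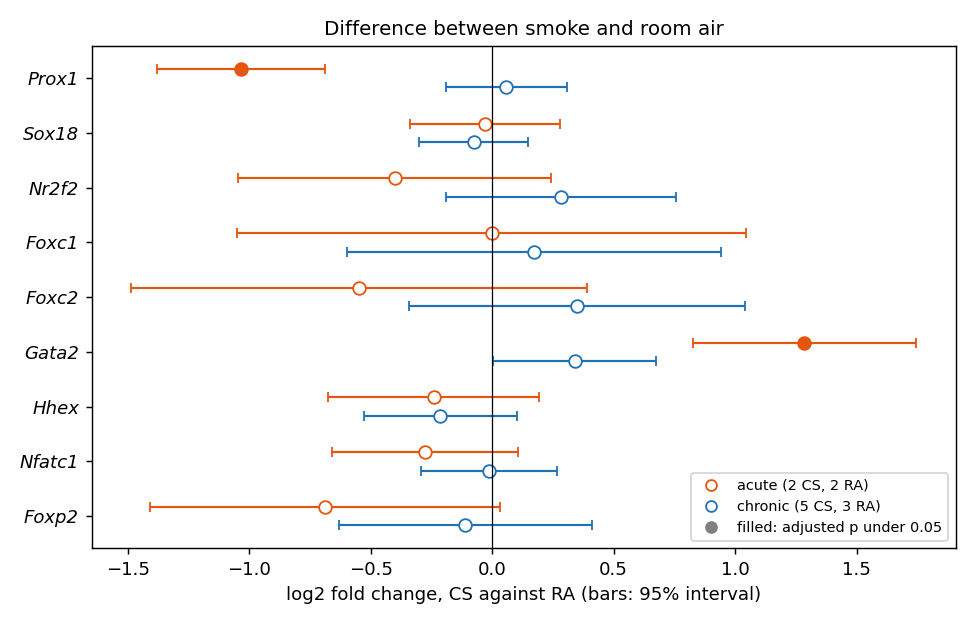
The plot gives each gene's log2 fold change of CS against RA with its 95% interval from edgeR, for the acute (orange) and chronic (blue) comparison, and filled points passed an adjusted p of 0.05. Prox1 (-1.03) and Gata2 (1.29) are filled in the acute comparison and no point is filled in the chronic one.

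The chronic comparison asked the same after 24 weeks or more. None of the 9 members was called by edgeR or by DESeq2, beside 0% and 2.91% of all genes, and 1 of 9 had an unadjusted p under 0.05, beside 10.9%. Prox1 was at 2111, 1953 and 1836 CPM in chronic RA F, M1 and M2. In chronic CS it was at 2273, 1814, 1825, 2005 and 2322 CPM in F and M1 to M4, with 2 libraries above and 2 below all controls. Its log2 fold change of 0.058 (95% interval -0.19 to 0.31, edgeR adjusted p = 0.883) leaves out a fall of the acute size.

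Gata2 was the member with the unadjusted p under 0.05. It was at 98.0, 107 and 108 CPM in chronic RA F, M1 and M2. In chronic CS it was at 111, 131, 166, 125 and 125 CPM in F and M1 to M4. All 5 CS libraries were above all 3 controls, as 9.41% of tested genes did not overlap in this comparison, and no other member did so. The log2 fold change was 0.34 (standard error 0.15, 95% interval 0.0052 to 0.68), with an unadjusted p of 0.0471 and an adjusted p of 0.454 from edgeR, so it failed the correction. The exact two-sided permutation p was 0.0357, the smallest that 5 libraries against 3 can give.

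The other 7 overlapped between chronic CS and RA. Foxc2 had 4 of 5 CS libraries above all controls, at 67.4, 55.4, 52.5 and 51.7 CPM against 38.8 to 43.8 CPM, while M2 was below them at 34.7 CPM. Nr2f2 had 3 of 5 above, with 366 CPM in M1, 309 CPM in M2 and 264 CPM in M3 against at most 249.9 CPM. Foxc1 ran from 28.9 to 56.2 CPM in CS around its controls at 31.9 to 43.4 CPM. Hhex had 2 of 5 CS libraries below all controls, F at 73.5 CPM and M2 at 84.5 CPM. Sox18 ran from 524 to 605 CPM in CS and from 518 to 613 CPM in RA. The log2 fold changes of these 5 were 0.35, 0.28, 0.17, -0.21 and -0.076, with edgeR adjusted p-values from 0.607 to 0.886.

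Chronic CS M1 and M2 were the lowest of the 8 chronic libraries for Prox1, Nfatc1 and Foxp2 and the highest for Nr2f2. Foxp2 was at 28.0 CPM in M1 and 34.2 CPM in M2, below all 3 controls at 43.2 to 55.5 CPM, while F, M3 and M4 ran from 50.3 to 55.8 CPM. Nfatc1 was likewise at 258 and 284 CPM in M1 and M2, below its controls at 301 to 342 CPM, and at 324 to 365 CPM in the other 3. Their log2 fold changes of -0.11 and -0.012 changed sign with M3 and M4 only, to 0.11 and 0.089. M3 and M4 were also the deeper chronic CS libraries, with 47494020 and 45436986 counts against 18821438 to 22885446 in F, M1 and M2. The summed level of 7 lymphatic endothelial markers was also lowest in M1 and M2 of the chronic libraries, at 13247 and 13426 CPM against 17964 to 21111 CPM in the 6 others. The part of this difference in the values of Foxp2 and Nfatc1 was not tested.

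The effects of acute and chronic CS were then compared in the same fit as their difference. Prox1 differed, by -1.09 on the log2 scale (standard error 0.19, 95% interval -1.52 to -0.67, edgeR adjusted p = 0.0406). It was the 1 of 9 members called, beside 0.452% of all genes, 0.401% with a higher and 0.0513% with a lower acute effect. Gata2 differed by 0.95 (95% interval 0.38 to 1.51) with an edgeR adjusted p of 0.147, and DESeq2 called it (adjusted p = 0.0282). Thus 2 of 9 were called by DESeq2 and 2 of 9 had an unadjusted p under 0.05, beside 5.33% and 11.9% of genes. The Prox1 call was lost when any 1 of 9 libraries was left out, the exceptions being acute CS M and chronic CS M1 and M2. Over these 12 fits the difference ran from -1.23 to -0.96 and its edgeR adjusted p from 0.0307 to 0.227.

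Between the RA groups, chronic against acute, none of the 9 members was called by edgeR or DESeq2, beside 0% and 1.55% of all genes. Sox18 was higher in all 3 chronic RA libraries, at 613, 518 and 608 CPM against 427 and 472 CPM. Its log2 fold change of 0.37 (95% interval 0.083 to 0.65) had an unadjusted p of 0.0159 and an edgeR adjusted p of 0.619, and it was the 1 of 9 under 0.05 unadjusted, beside 7.01%. Nfatc1 was at 301 to 342 CPM in chronic and 250.2 to 268 CPM in acute RA, a log2 fold change of 0.31 (95% interval -0.047 to 0.66). Foxc1 and Foxp2 were also higher in all 3 chronic libraries, by 0.29 and 0.28, and Prox1 was lower in all 3, by -0.26. These 5 of 9 stand beside 34.7% of all tested genes without overlap, and the exact p for 3 against 2 libraries cannot go below 0.2.

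Dividing each factor's CPM by that of Prox1 in the same library gives each level relative to Prox1. Sox18 stood at 19.1% of Prox1 in acute RA F and 19.1% in acute RA M. Both acute CS libraries, at 37.8% (F) and 38.6% (M), were above all other libraries, which ran from 22.8% to 33.1% in the chronic groups. Nfatc1 was at 11.98% and 10.1% in acute RA and at 18.7% and 18.5% in acute CS. In the 8 chronic libraries it kept between 14.2% and 17.3%. Gata2 was at 5.67% and 4.33% of Prox1 in acute RA and at 32.4% and 18.5% in acute CS. No chronic library was above 9.11% for Gata2.

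All 8 ratios were higher on average in acute CS than in acute RA, beside 93.3% of all tested genes, and 5 of 8 were higher without overlap, beside 76.8%. The log2 differences of these were 2.30 for Gata2, 1.0 for Sox18, 0.80 for Hhex, 0.76 for Nfatc1 and 0.32 for Foxp2. The 8 ratios share the fall of Prox1 as denominator and are not independent of it. In the chronic comparison 4 of 8 were higher, beside 40.2%, and none was free of overlap, beside 8.69%, with a smallest exact permutation p of 0.25. Nr2f2 ran from 10.1% to 20.2% of Prox1 in chronic CS and from 9.93% to 13.6% in chronic RA. In chronic RA against acute RA all 8 ratios were higher on average, beside 69.9%, and those of Sox18, Nfatc1, Foxc1 and Foxp2 did not overlap, 4 of 8 beside 35.9%.

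**Figure D3:**
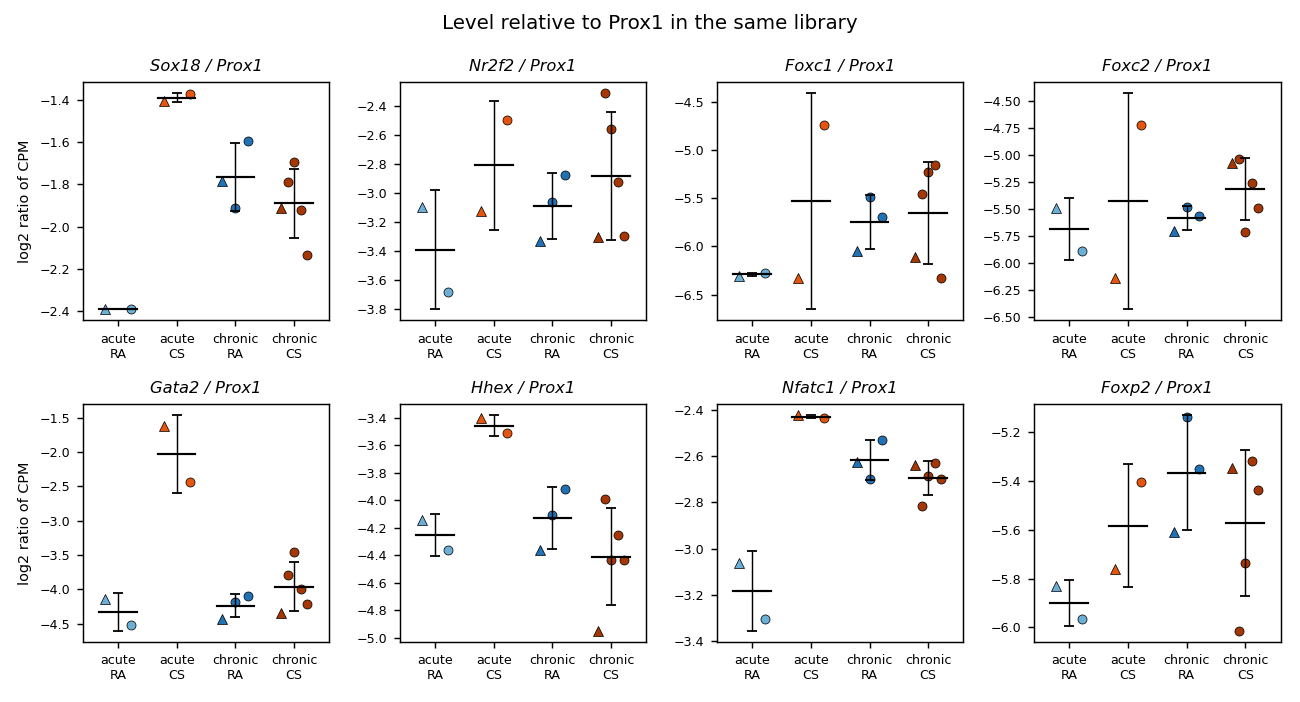
Each panel plots the log2 ratio of 1 gene's CPM to the CPM of Prox1 in the same library, by group, with triangles for female and circles for male libraries and lines and bars for mean and SD. The axes do not start at 0. Both acute CS libraries lie above both acute RA libraries for Sox18, Gata2, Hhex, Nfatc1 and Foxp2.

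Markers of cell types moved with the 2 acute calls. The summed lymphatic markers (Flt4, Pdpn, Lyve1, Mmrn1, Reln, Nrp2 and Thy1) were at 13129.6 and 14767 CPM in acute RA and at 5491 and 8645 CPM in acute CS, with 6 of 7 lower in both CS libraries. The 12 blood endothelial markers summed to 5624 and 6804 CPM in acute RA and to 12592 and 9683 CPM in acute CS. Of these, 9 of 12 were higher and 1 was lower in both CS libraries. Gpihbp1, the lipase anchor of capillaries, was at 189 and 167 CPM in RA and 525 and 386 CPM in CS. The 6 pan-endothelial markers summed to 3558 and 3950.0 CPM in RA and to 6108 and 4713 CPM in CS, with 4 of 6 higher. Acute marker counts here and below stand beside 50.1% of all tested genes whose acute groups did not overlap, in either direction. In both endothelial sums acute CS F lay farthest from the controls, as it did for Prox1 and Gata2.

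Leukocyte markers summed to 178 and 184 CPM in acute RA and to 1471 and 1174 CPM in acute CS, with 6 of 6 higher. Ptprc, the common leukocyte antigen CD45, was at 19.8 and 19.6 CPM in RA and 285 and 154 CPM in CS. Alveolar macrophage markers summed to 769.6 and 685 CPM in RA and to 2024 and 2199.6 CPM in CS, with 6 of 7 higher. Most of that RA sum was Mrc1, at 632 to 663 CPM, the 1 marker that was lower in CS, at 265 to 411 CPM. Chil3 was at 86.6 and 31.2 CPM in RA and at 1314 and 1355 CPM in CS. The lymphoid sum was 15.2 and 15.5 CPM against 168 and 165 CPM, and the mesenchymal sum 131 and 204 CPM against 621 and 987 CPM, with all 7 higher in each list. Alveolar epithelial markers were at 742 and 1055 CPM in RA, 6374 CPM in the female and 252 CPM in the male CS library, and erythroid markers at 9.74 and 656 CPM in CS around 35.5 and 65.2 CPM in RA. No marker of these lists was at 0 in every library. The part of these differences in the values of Prox1 and Gata2 was not tested.

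Gata2 is also a factor of mast cells and basophils, so 7 of their genes were read as well, a list added after the Gata2 values were seen. Their sum was 14.9 and 7.98 CPM in acute RA and 69.6 and 33.1 CPM in acute CS. Most of it was Hdc, the histidine decarboxylase, at 12.9 and 7.89 CPM in RA and 64.9 and 29.1 CPM in CS. The mast cell carboxypeptidase Cpa3 was at 0.439 and 0.0946 CPM in acute RA and 1.197 and 0.803 CPM in acute CS, and the mast cell tryptase Tpsb2 was at 0 in all 4. In the chronic comparison the sum was 4.89 to 6.91 CPM in RA and 10.7 to 18.4 CPM in CS. Of the 7 genes only Hdc was higher in every chronic CS library than in all chronic RA libraries. The part of these cells in the Gata2 level was not tested.

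Of the 10 marker sums, 5 did not overlap between the chronic groups. The lymphatic sum was 13247 to 19009 CPM in CS and 17964 to 21111 CPM in RA, and the leukocyte sum 168 to 355 CPM against 170.5 to 213 CPM. The blood endothelial sum was 6056 to 6727 CPM in CS, below 6906 to 7365 CPM in RA. The pan-endothelial sum was 3581 to 3913 CPM, below 4217 to 4329 CPM. Against these sums, 2 of 12 blood endothelial and 1 of 6 pan-endothelial markers were higher in every chronic CS library. Gpihbp1 ran from 129 to 308 CPM in chronic CS and from 115 to 180 CPM in chronic RA. The mesenchymal sum, at 204 to 334 CPM against 117 to 145 CPM, was higher in all 5 CS libraries. So were the alveolar epithelial sum, at 907 to 4533 CPM against 246 to 468 CPM, the mast cell and basophil sum, and Gata2. Single genes higher in all 5 were 5 of 7 mesenchymal, 6 of 7 alveolar epithelial and 1 of 7 mast cell and basophil markers. Of all tested genes 9.41% did not overlap here, in either direction. The part of these marker differences in the Gata2 values was not tested.

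**Figure D4:**
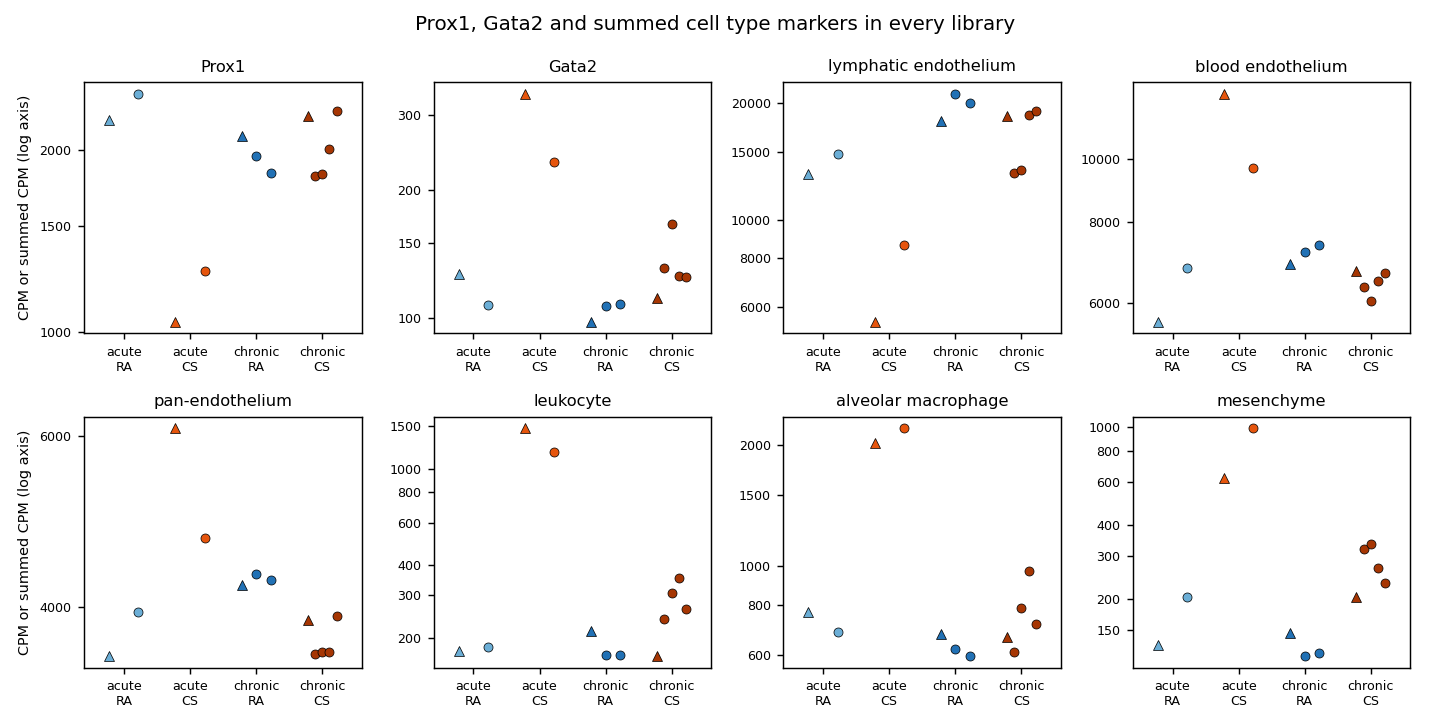
The panels plot CPM of Prox1 and of Gata2 and the summed CPM of 6 marker lists in every library, on log axes that differ between panels, with triangles for female and circles for male libraries. In acute CS the lymphatic sum is low with Prox1, at 5491 and 8645 CPM, and the blood endothelial sum is high with Gata2, at 12592 and 9683 CPM.

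The other genes of the program were taken from 4 lists. Sox7, Sox17 and Gata6 are in both the pan-endothelial and the paralogue list, and Nr2f1 is both a regulator and a paralogue. The targets Flt4, Pdpn, Lyve1, Reln and Nrp2 are also in the lymphatic marker sum. The lists and that sum are thus not separate observations. Acute counts and medians of the lists stand beside 3.47% of all tested genes called by edgeR, 10% by DESeq2 and an all-gene median log2 fold change of 0.041. At an unadjusted p under 0.05 they held 6 of 16 regulators, 6 of 14 pan-endothelial factors, 7 of 14 paralogues and 10 of 14 targets, beside 15.7%. Among 16 other transcription regulators of lymphatic development, acute CS gave 1 higher and 2 lower calls by edgeR, the median log2 fold change being -0.19, and 1 call without acute CS F. DESeq2 called 4 of the 16, beside 10% of all genes. Foxf1, a forkhead factor of lung mesenchyme and capillaries, rose from 74.5 and 37.5 CPM to 978 and 594 CPM (log2 fold change 3.81, edgeR adjusted p = 0.00670). Elk3, an ETS factor of endothelium, fell from 849.5 and 944 CPM to 428 and 578 CPM (-0.83, edgeR adjusted p = 0.0208). Tbx1, a T-box factor of lymphatic growth, fell from 770.4 and 830.3 CPM to 286 and 506 CPM (-1.02, edgeR adjusted p = 0.0457). Hoxd8 was at 69.8 and 60.3 CPM against 18.6 and 42.6 CPM, and passed by DESeq2 but not by edgeR (-1.09, adjusted p = 0.0396 and 0.155).

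Among 14 tested pan-endothelial transcription factors edgeR called 2 higher and 1 lower, with a median of 0.27 beside 0.041 over all genes, and 1 call without acute CS F. DESeq2 called 6 of the 14. Epas1, the hypoxia factor HIF-2α, rose from 124 and 95.3 CPM to 998 and 464 CPM (log2 fold change 2.74, edgeR adjusted p = 0.00570). Hey1, a Notch target of arteries, rose from 25.01 and 18.6 CPM to 121 and 62.6 CPM (2.08, edgeR adjusted p = 0.00824). Mef2c fell from 225 and 264 CPM to 157 and 181 CPM (-0.53, edgeR adjusted p = 0.0472). The common endothelial ETS factors Erg and Fli1 had log2 fold changes of -0.25 and 0.049 and did not pass.

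Among 14 tested paralogues of the members edgeR called 1 higher and none lower, beside 3.47% of all genes, with a median of 0.67, while DESeq2 called 7 of the 14, beside 10%. Gata3, the paralogue of Gata2 known from lymphoid cells, rose from 0.963 and 0.624 CPM to 28.2 and 34.5 CPM (log2 fold change 5.30, edgeR adjusted p = 0.00805). Gata6, at 4.41 and 1.02 CPM against 18.7 and 21.7 CPM, passed by DESeq2 but not by edgeR (2.89, adjusted p = 0.00117 and 0.0630). The same held for the paralogues of Sox18, with Sox17 at 1.94 (DESeq2 adjusted p = 0.00423, edgeR 0.0843) and Sox7 at 0.68 (DESeq2 adjusted p = 0.0178, edgeR 0.0974).

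Among 14 tested targets or partners of the members edgeR called 4 lower and 1 higher, beside 3.47% of all genes, with a median of -0.24 beside 0.041, and 1 call and a median of -0.061 without acute CS F. DESeq2 called 8 of the 14. Nrp2, the co-receptor of VEGF-C, fell from 1741 and 1823 CPM to 581 and 749 CPM (log2 fold change -1.42, edgeR adjusted p = 0.00570). Itga9, an integrin of lymphatic valves, fell from 985 and 1111 CPM to 275 and 425 CPM (-1.58, edgeR adjusted p = 0.00824). The connexin Gja1 fell from 2460.4 and 2081 CPM to 703 and 1273 CPM (-1.20, edgeR adjusted p = 0.0181). Flt4 fell from 2716 and 3179 CPM to 1159 and 1588 CPM (-1.10, edgeR adjusted p = 0.0204).

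The 1 target called higher was Fgfr3, a growth factor receptor under Prox1, named after its value was seen (1.73, edgeR adjusted p = 0.0460). Pdpn, the lymphatic podoplanin, was at 168 and 172 CPM against 82.1 and 129 CPM, and passed by DESeq2 but not by edgeR (-0.69, adjusted p = 0.0122 and 0.0909). Lyve1, a hyaluronan receptor of lymphatic capillaries, stood at 443 and 536 CPM in RA and 568 and 986 CPM in CS (0.67, edgeR adjusted p = 0.307). In the chronic comparison and between the RA groups no gene of the 4 lists was called by edgeR. By DESeq2, 2 other regulators were called in the chronic comparison, beside 2.91% of all genes. Foxf1 was 1 of them (edgeR log2 fold change 1.35, DESeq2 adjusted p = 0.0123, edgeR 0.312). Between the RA groups DESeq2 called 1 target, beside 1.55%. It was Lyve1, at 1008 to 1625 CPM in chronic and 443 to 536 CPM in acute RA (edgeR log2 fold change 1.53, DESeq2 adjusted p = 2.9e-05, edgeR 0.215). At an unadjusted p under 0.05 the chronic counts were 4 of 16 regulators, 1 of 14 pan-endothelial factors, 1 of 14 paralogues and 3 of 14 targets, beside 10.9% of all genes. Between the RA groups they were 1 of 16, 1 of 14, 3 of 14 and 3 of 14, beside 7.01%.

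The genes whose pattern over the 12 libraries was nearest to that of Prox1 were sought among 10880 genes, by the root mean square difference of centred log2 CPM. They were Ift80, a gene of ciliary transport, at 0.105, Mrc1, the mannose receptor, at 0.118, Etv1, an ETS factor, at 0.137, the kinase Map4k5 at 0.138 and Mtmr12 at 0.143. The acute log2 fold changes of these 5 ran from -1.03 to -0.85, and their chronic ones from -0.060 to 0.15. Mrc1 is also 1 of the 7 macrophage markers, and was the 1 of them that was lower in both acute CS libraries. Of the members, Nfatc1 was nearest to Prox1 at 0.242 and Foxp2 next at 0.271, and Gata2 was farthest at 0.841.

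Genes on the opposite strand overlap 3 members, Prox1, Nr2f2 and Nfatc1, of which the antisense gene AC123818.1 within Nfatc1 was not analysed here. Gm28172, an antisense gene of 506 exon bases at chr1:190168670-190169633, lies within Prox1 and shares no exon base with it. It was at 404 and 442 CPM in acute RA F and M and at 193 and 135 CPM in acute CS F and M. In chronic RA it was at 286, 197 and 218 CPM, and in chronic CS it ran from 242 to 371 CPM. It fell with Prox1 in the acute comparison (log2 fold change -1.37, edgeR adjusted p = 0.0106) and its acute and chronic effects differed (-1.75, edgeR adjusted p = 0.0406). Prox1os, a further antisense gene, shares 133 exon bases, 1.59% of those of Prox1, and was at 32.2 and 49.6 CPM in acute RA and 16.0 and 28.0 CPM in acute CS (-0.89, edgeR adjusted p = 0.401). B130024G19Rik shares 643 exon bases with Nr2f2, 7.46% of its exons, and was at 51.3 and 44.7 CPM against 26.7 and 24.1 CPM (-0.92, edgeR adjusted p = 0.0983). The strand setting of the counting is not stated, so reads of these genes may not be told apart from unspliced or opposite RNA of Prox1 and Nr2f2.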

How the data were processed

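RNA of sorted lung LECs was sequenced in 12 libraries, made with SMART-Seq v4. The deposited values are raw gene counts by Ensembl identifier. For them the authors trimmed reads with Skewer 0.2.2, checked quality with FastQC 0.11.9 and Minion, and ran STAR on GRCm38 in its gene count mode. The annotation release, strand setting and STAR version are not given in the sources used here. Names and positions come from GENCODE M21, in which 147 identifiers, at most 0.011% of a library, were not found.

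All 12 libraries were fitted by group in edgeR 4.0.16 (R 4.3.3) with TMM factors, its expression filter and the quasi-likelihood F-test, with Benjamini-Hochberg adjustment over 21440 genes and a limit of 0.05. Standard errors and 95% intervals come from that fit. Single values were compared by exact two-sided permutation of log2 CPM with a prior count of 2. Replicates are separate libraries, and no pair of a group agreed within sampling noise (lowest chi-square per degree of freedom 31.4). Floors of 3 counts cover counting error only.

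The members and lists were chosen with earlier results of these data known. Genes named beside the members were the 4 of each list with the smallest acute p, the lymphatic genes Flt4, Pdpn and Lyve1, defining markers of other cell types, and the 5 nearest in pattern to Prox1. Erg, Fli1, Fgfr3, the antisense genes and the mast cell list were added later. Nkx2-3 was not tested and Ccl21a, with more than 1 identifier, was left out. Promoter windows, from RefSeq, were given for 5 members, and none is printed for the others. Alternatives were DESeq2 1.42.0, other scaling, no filter, fewer groups, sex as covariate, a replicate block, robust estimation, leaving out each library, and parts of chronic CS.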

Additional observations from a re-analysis of the deposited data

Results flagged for a closer look

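The effect of CS on Prox1 differed between the acute and the chronic groups by -1.09 on the log2 scale (edgeR adjusted p = 0.0406 for the difference itself), with lower levels in 2 of 2 acute CS libraries and levels on both sides of the controls in chronic CS. The lymphatic marker sum was lower and the blood endothelial and leukocyte sums were higher in the same 2 libraries, and their part was not tested. The call of the Prox1 difference was lost with sex as covariate (edgeR adjusted p = 0.0676) and with the replicate block (edgeR adjusted p = 0.146). It was also lost with chronic CS F, M1 and M2 only (edgeR adjusted p = 0.0537) and in most fits that left out 1 library. None of the 9 members had a chronic CS library far from the 4 others by Dixon's test, which flags about 1 in 20 groups by chance.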

How the results depend on the processing

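The acute log2 fold changes of Prox1 and Gata2 kept their sign under all 12 alternatives, from -1.18 to -0.90 and from 0.998 to 1.53, and edgeR's adjusted p was above 0.05 in some, up to 0.0919 and 0.119. In the acute comparison 2 members were called, of 745 genes in all. With only the groups compared it was 0 of 139, with the replicate block 1 of 73, and leaving out 1 library gave 0 to 3 members, of 3 to 973 genes. There were 0 without acute RA F (of 79), acute RA M (of 3) or acute CS F (of 175), and 3, with Foxc2, without acute CS M (of 858). Each of these 4 fits leaves an acute group of 1 library, assumed to vary like the other groups. Same-numbered libraries did not deviate together (correlations from -0.042 to 0.069), so the numbers name but do not pair them. Under the replicate block Gata2 had an adjusted p of 0.0526.

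For the difference of the effects, 1 member of 97 genes was called, against 2 of 916 by DESeq2, 0 of 21 with sex as covariate, 0 of 0 with the replicate block and 0 of 105 with chronic CS F, M1 and M2 only. Leaving out 1 library gave 0 to 2 members, of 0 to 263 genes. Signs that changed belonged to differences that were never called, apart from Foxc2. Without 1 library the acute values ran from -0.19 to 0.12 for Sox18, from -1.21 to 0.65 for Foxc1 and from -1.63 to 0.066 for Foxc2. Chronic values changed sign for Prox1 under the replicate block (-0.0028), for Sox18 by library size (0.010), and for Nfatc1 by DESeq2 (0.022), DESeq2 size factors (0.022) and library size (0.068). With M3 and M4 only they were 0.089 for Nfatc1 and 0.11 for Foxp2, and without 1 library -0.067 to 0.072 and -0.20 to 0.034.

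Without acute CS F, 1 regulator, 1 pan-endothelial factor and 1 target were called in the acute comparison. DESeq2 called 6 pan-endothelial factors, 7 paralogues and 8 targets there, beside 10% of all genes, and 2 regulators in the chronic comparison, beside 2.91%. The cause of these changes was not tested.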
